A study of Mus musculus with 6 samples.

Results

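The accessible regions described here lie around 8 mouse genes of the G1 phase of the cell cycle: the cyclin-dependent kinase genes Cdk4 and Cdk6, the D-type cyclin genes Ccnd1, Ccnd2 and Ccnd3, the cyclin E gene Ccne1, and the kinase inhibitor genes Cdkn1a, which encodes p21, and Cdkn1b, which encodes p27. An interval of a deposited peak list was taken as a member when the protein-coding gene end nearest to its midpoint, within 100 kb, belonged to 1 of these genes. This gave 84 of 91228 intervals in 2iL, 69 of 88810 at 48 h and 54 of 78055 at 96 h, or 207 of 258093 in all. Coordinates are those of mm10, and below and above a gene mean towards lower and higher coordinates. ATAC-seq, in which a transposase cuts and tags accessible DNA, had been applied to E14 mouse embryonic stem cells. The untreated cells grew in N2B27 medium with 2iL, that is LIF together with CHIR99021, which inhibits GSK3, and PD0325901, which inhibits MEK; the others had N2B27 alone for 48 h or 96 h. All cells were of this single line, with samples A and B in every group, and nothing in the labels says that A and B were separate cultures. One list stands for each group, so no spread between replicates can be given and no test between conditions was possible.

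The D-type cyclins bind Cdk4 and Cdk6 and start the phosphorylation of the retinoblastoma protein, which frees E2F factors to switch on genes of S phase entry, Ccne1 among them. Cyclin E with Cdk2 then drives entry into S phase, and p21 and p27 bind and inhibit cyclin-kinase complexes. Mouse embryonic stem cells are known for a short G1 phase, which lengthens as they differentiate. A peak list shows where DNA was accessible, not how strongly a gene was transcribed, and in bulk samples fewer cells with an accessible site and less access per cell cannot be told apart. The region nearest to a gene need not act on it.

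Every start site of these genes that has an entry in the RefSeq promoter table (GRCm38.p6, the assembly of mm10) was inside an accessible interval in all 3 lists. That table held 8 start windows, from 250 bases before to 50 after a start, for 6 of the genes, and all 8 were covered. Of 21263 windows of all protein-coding genes, 62%, 64.7% and 63.9% were covered in the 2iL, 48 h and 96 h lists, and 59.8% in all 3. For Ccnd1 and Ccnd2, named without a window, the upper end of the gene was covered in all 3. The 250 bases before the start are shown for 5 of these windows, each of which adjoins a start that was listed as accessible throughout. The same holds for the windows not shown, those of Ccnd3 and the second of Cdkn1a. At Cdkn1a the first bases shown lie outside the listed interval, which begins at position 29090804 in 2iL, 29090771 at 48 h and 29090804 at 96 h. Capitals mark matches, on either strand, to these motifs: the E-box CACGTG, the GC box GGGCGG, the Klf motif GGGTGTG, the TCF/LEF motif CTTTGAT, and the p53 response element.
Cdk4 (chr10:127063285-127063534, plus strand): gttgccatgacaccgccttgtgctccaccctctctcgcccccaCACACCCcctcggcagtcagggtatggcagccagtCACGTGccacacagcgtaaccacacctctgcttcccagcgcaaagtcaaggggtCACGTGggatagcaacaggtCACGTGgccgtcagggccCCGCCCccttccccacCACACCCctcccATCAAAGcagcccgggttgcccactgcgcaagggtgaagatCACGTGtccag
Cdk6 (chr5:3343643-3343892, plus strand): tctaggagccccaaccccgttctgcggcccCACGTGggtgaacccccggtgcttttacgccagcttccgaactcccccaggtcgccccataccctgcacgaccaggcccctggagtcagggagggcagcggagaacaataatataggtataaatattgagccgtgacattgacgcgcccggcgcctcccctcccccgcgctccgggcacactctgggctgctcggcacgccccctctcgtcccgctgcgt
Ccne1 (chr7:38107491-38107740, minus strand): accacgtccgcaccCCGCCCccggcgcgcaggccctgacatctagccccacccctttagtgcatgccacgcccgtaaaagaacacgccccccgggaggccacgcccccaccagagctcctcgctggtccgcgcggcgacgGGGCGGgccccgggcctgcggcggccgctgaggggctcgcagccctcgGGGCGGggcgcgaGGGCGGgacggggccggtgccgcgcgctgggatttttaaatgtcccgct
Cdkn1a (chr17:29090729-29090978, plus strand): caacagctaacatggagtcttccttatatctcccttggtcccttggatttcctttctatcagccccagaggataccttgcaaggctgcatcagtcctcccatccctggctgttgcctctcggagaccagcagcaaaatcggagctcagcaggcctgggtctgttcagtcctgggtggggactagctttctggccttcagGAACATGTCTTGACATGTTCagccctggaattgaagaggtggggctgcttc
Cdkn1b (chr6:134920151-134920400, plus strand): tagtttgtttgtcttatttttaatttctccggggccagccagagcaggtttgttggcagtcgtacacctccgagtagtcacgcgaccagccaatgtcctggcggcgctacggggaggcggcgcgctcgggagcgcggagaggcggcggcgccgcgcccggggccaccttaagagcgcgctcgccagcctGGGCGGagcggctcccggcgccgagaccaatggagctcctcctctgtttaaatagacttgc

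The Cdk4 window holds 4 E-boxes, the sequence bound by Myc and other basic helix-loop-helix factors, and 8 of 32851 windows of all genes, 0.0244%, held 4 or more. A single E-box stands in the Cdk6 window, and 7.15% of windows held at least 1. The search also took in 50 bases after each start, which are not printed and where 2 GC boxes of Cdk4 overlap each other by a base. The GC box, bound by Sp1 and its relatives, was in 6 of the 8 member windows and in 35.7% of all windows, and it occurs 4 times in the Ccne1 window. The first Cdkn1a window, the one shown, holds a p53 response element at positions -51 to -32 from the start. It has 1 mismatch to the consensus of 2 decamers without a spacer, and 29 of 32851 windows, 0.0883%, held such an element at that limit. This motif, and windows with 4 or more E-boxes, were searched for only after the sequences had been seen. In the Cdk4 window the Klf motif occurs at 2 places and the TCF/LEF motif at 1, and these were in 7.95% and 3.73% of all windows. The E2F motifs TTTCCCGC and TTTGGCGC, the TCF/LEF motif CTTTGAA, the STAT motif TTCNNNGAA, the octamer ATGCAAAT and the AP-1 motif TGAGTCA had no match in the 8 windows, and were in 1.07%, 0.514%, 5.14%, 8.30%, 1.74% and 5.20% of all windows. The GC content of the 250 bases was 64.4% at Cdk4, 66% at Cdk6, 76% at Ccne1, 54% at Cdkn1a and 64.4% at Cdkn1b, with a median of 52.4% over all windows. Sequence matches of this kind describe the letters present and are not evidence of binding, and no match says only that the letters are not in the window.

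The lists themselves were similar in median fold enrichment and differed in length. Median fold enrichment at the summit, the authors' value, was 8.29, 8.14 and 8.79 in the 2iL, 48 h and 96 h lists. Median widths were 677, 658 and 645 bp. Sequencing depth is not given with a peak list. A background was recovered from the fold and p of intervals with a -log10 p under 200, 63483 in 2iL, 58639 at 48 h and 50227 at 96 h. Given as 1 value per list, it was 14.2 tags per position in 2iL, 15.18 at 48 h and 13.99 at 96 h, highest for the 48 h list. Single sites can differ from it. In 2iL, chr17:29068483-29068963 at Cdkn1a had a lower fold than chr6:127245764-127246375 at Ccnd2, 2.39 beside 5.72. The Cdkn1a site had the higher -log10 p, 51.9 beside 38.2, which under a Poisson model needs a higher background. Folds therefore do not by themselves compare access between sites or lists, and strongest below means of highest fold. Of 6 genes that mark embryonic stem cells (Pou5f1, Sox2, Nanog, Zfp42, Esrrb and Klf4), 5 had an interval within 1 kb of an end in 2iL and all 6 at 48 h and 96 h, Esrrb being the gene without one in 2iL. Of 3 fibroblast marker genes, 2 had such an interval in 2iL, 2 at 48 h and 3 at 96 h, Col1a1 at 96 h alone. Of 3 extraembryonic endoderm marker genes, 1 had one in 2iL, 2 at 48 h and 3 at 96 h. Such intervals are common: 62%, 64.7% and 63.9% of promoter windows of all protein-coding genes were covered in the 2iL, 48 h and 96 h lists, a related but not equal measure. These marker counts therefore do not show which cell types were present. The part of other cell types in the results was not tested.

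Together the 8 genes lost regions at shares near those of all genes, and their gained shares were lower in value than those of all genes. A 2iL interval is called lost when no interval of the later list overlaps it by at least 1 bp, and a later interval gained when no interval of the earlier list does. Brackets give the 95% binomial interval by the exact Clopper-Pearson method, for counting error alone. By 96 h, 41 of the 84 member intervals of 2iL were lost, 48.8% (37.7 to 59.96), beside 42.9% of 81060 intervals at all genes. Of the 54 member intervals at 96 h, 12 were gained, 22.2% (12.0 to 35.6), beside 32.5% of 68477 at all genes. At 48 h, 30 of the 84 intervals of 2iL were lost, 35.7% (25.6 to 46.9), beside 31.1% at all genes, and 13 of 69 were gained, 18.8% (10.4 to 30.1), beside 29.4%. Between 48 h and 96 h, 21 of 69 were lost, 30.4% (19.9 to 42.7), beside 29.7%, and 8 of 54 were gained, 14.8% (6.62 to 27.1), beside 18.9%. These binomial intervals contain the share of all genes in each of the 6 cases. They do not for gains at 48 h with lists of equal length, 12.9% (5.74 to 23.85) beside 29.04%, nor, with intervals assigned to the nearest gene body, for gains at 48 h, 17.6% (9.70 to 28.2) beside 30.001%, and for gains at 96 h against 2iL, 18.6% (9.69 to 30.9) beside 33.7%. The comparisons of 48 h and of 96 h with 2iL use the same 2iL list.

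**Figure D1:**
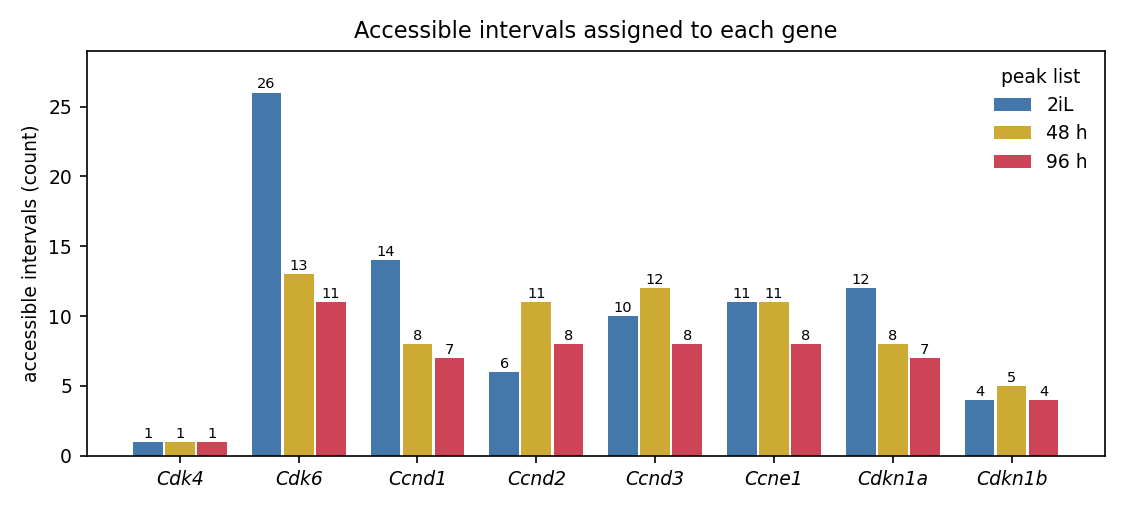
Number of accessible intervals (vertical axis) assigned to each of the 8 genes in the 2iL, 48 h and 96 h lists (bars, 1 list per group). Cdk6 has 26, 13 and 11 intervals and Ccnd2 has 6, 11 and 8, while Cdk4 has 1 in each list.

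The genes differed among themselves. Cdk6 and Ccnd1, with 26 and 14 of the 84 intervals of 2iL, together held 27 of the 41 lost by 96 h. The other 6 genes lost 14 of 44, 31.8% (18.6 to 47.6), beside 42.9% at all genes. Cdk6 and Ccnd1 had the highest shares lost of the 8 genes. The split therefore follows the outcome, and a lower share for the other 6 was fixed by it. Merged over the lists, the member intervals formed 102 regions: 40 were in all 3 lists, 28 in 2iL alone, 13 in 2iL and at 48 h, 7 at 48 h alone, 6 at 48 h and 96 h, 6 at 96 h alone and 2 in 2iL and at 96 h. The 40 were 39.2% (29.7 to 49.4) of these, beside 38.2% of 113840 regions at all genes, and the 28 were 27.5% (19.1 to 37.2), beside 20.2%. The share lost was higher farther from a gene end, at the 8 genes and at all genes. Within 1 kb of a gene end, 0 of 9 member intervals of 2iL were lost by 96 h, with an exact upper bound of 33.6%, beside 10.9% at all genes. Between 1 and 10 kb, 8 of 26 were lost, 30.8%, beside 45.0%. Beyond 10 kb, 33 of 49 were lost, 67.3% (52.5 to 80.1), beside 53.6% at all genes. In that distal class, under the same split, Cdk6 lost 15 of 18, Ccnd1 9 of 10, and the other 6 genes 9 of 21, 42.9% (21.8 to 66.0).

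**Figure D2:**
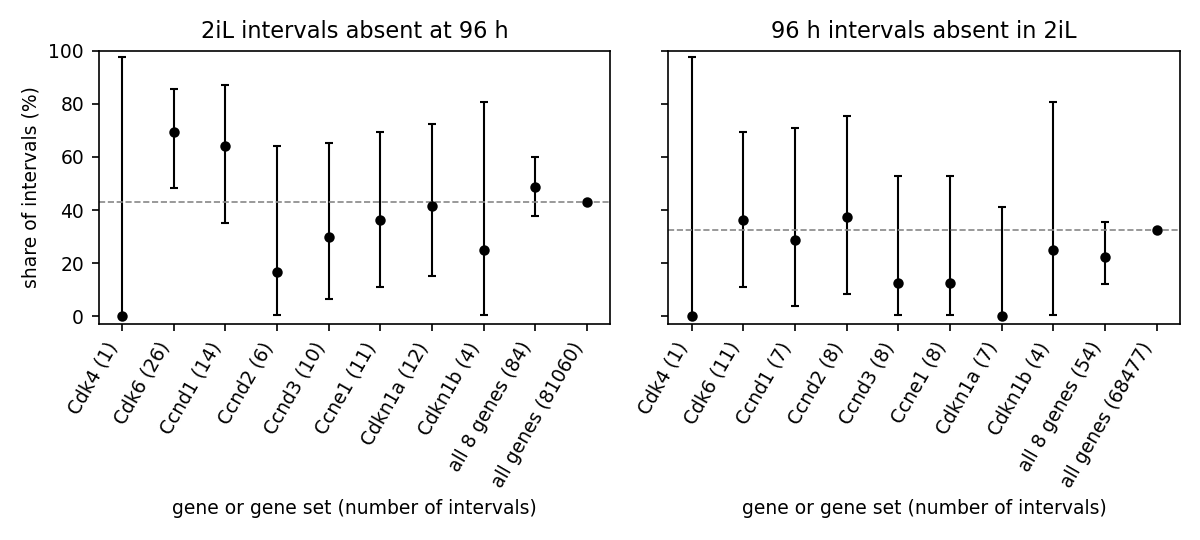
Share of 2iL intervals absent at 96 h (left) and of 96 h intervals absent in 2iL (right), in percent, for each gene, the 8 genes together and all protein-coding genes, with the number of intervals in brackets; bars are exact binomial 95% intervals and the dashed line is the share of all genes (42.9% and 32.5%). The bars give counting error alone and take the intervals of a gene as independent. The line is not matched for distance from a gene end: over 10 kb away, all genes lost 53.6%. The bar of Cdk6 for lost intervals lies above the line, from 48.2 to 85.7%, and those of the other 7 genes cross it. The loss at Cdk6 was known before the gene was chosen, so this is a description and not a test.

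Cdk6, the kinase partner of the D-type cyclins that also has roles in blood and neural progenitors, had the most regions and the most that disappeared. The gene spans 190 kb (chr5:3341004-3531008) and had 26, 13 and 11 intervals in 2iL, at 48 h and at 96 h, covering 18394, 8696 and 8537 bp. By 96 h, 18 of its 26 intervals of 2iL were lost, 69.2% (48.2 to 85.7), beside 42.9% at all genes. Of these, 14 were already absent at 48 h, 53.8% of the 26, beside 31.1% at all genes. Of the 26, 18 lay over 10 kb from a gene end, and 15 of those were lost by 96 h, beside 53.6% at all genes in that class. Of 297 genes with at least 20 intervals in 2iL, Cdk6 ranked 38 by the share lost by 96 h. Its loss had been noted in these data before the gene was chosen, so the rank is a description.

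The regions that stayed at Cdk6 were those at its start and a few within and near the gene. The start lies at position 3343893, and the interval over it had a fold enrichment of 7.64, 7.93 and 8.84 in 2iL, at 48 h and at 96 h. It was 1166 bp wide in 2iL and 1190 bp at 48 h; at 96 h a single interval of 2804 bp reached over the start and over the neighbouring stretch that had been listed separately before. An intronic or exonic position could not be assigned to the other regions, since the annotation used gives gene ends only. Inside the gene 6 regions were in all 3 lists. Besides that over the start they were 0.441 kb from its lower end (chr5:3341134-3341793, fold 3.83, 5.18 and 3.78), 45.9 kb from its lower end (chr5:3386436-3387452, fold 17.0, 10.2 and 7.40), 76.8 kb from its upper end (chr5:3453841-3454601, fold 18.7, 11.3 and 12.3), 4.60 kb from its upper end (chr5:3526280-3526533, fold 5.49, 6.12 and 4.66) and 3.58 kb from its upper end (chr5:3527097-3527700, fold 10.6, 14.6 and 19.9). The only other region in all 3 lists lay 16.5 kb below the gene (chr5:3323995-3324858, fold 11.2, 5.87 and 9.03).

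Of the 18 lost intervals of Cdk6, 11 lay inside the gene, 6 below it and 1 above it. Below the gene, 6 of the 7 intervals of 2iL were lost, including 1 at chr5:3293693-3294254, 47.0 kb away, whose fold was 14.4 in 2iL, with 14.02 at 48 h, the strongest that was lost. Inside the gene, 3 neighbours 10.99, 14.5 and 22.6 kb from the lower end, with folds of 9.56, 4.44 and 8.66 in 2iL, were absent from both later lists. Towards the upper end, 4 regions 8.89 to 15.8 kb from it were found in 2iL alone, the strongest at chr5:3521675-3522571 with a fold of 12.2. The intervals lost at Cdk6 had a median fold of 8.66 in 2iL, and those kept 9.13. The median percentile of the lost ones within the 2iL list was 53.02, whereas lost intervals at all genes had a median percentile of 34.8. A score of 1000, the highest in the list, belonged to 13 of the 18. Gains were few. A region inside the gene, 54.2 kb from its lower end (chr5:3394930-3395444), was new at 48 h and kept at 96 h with folds of 12.3 and 12.5, and 3 others, with folds of 7.34 to 10.6, were found at 96 h alone.

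**Figure D3:**
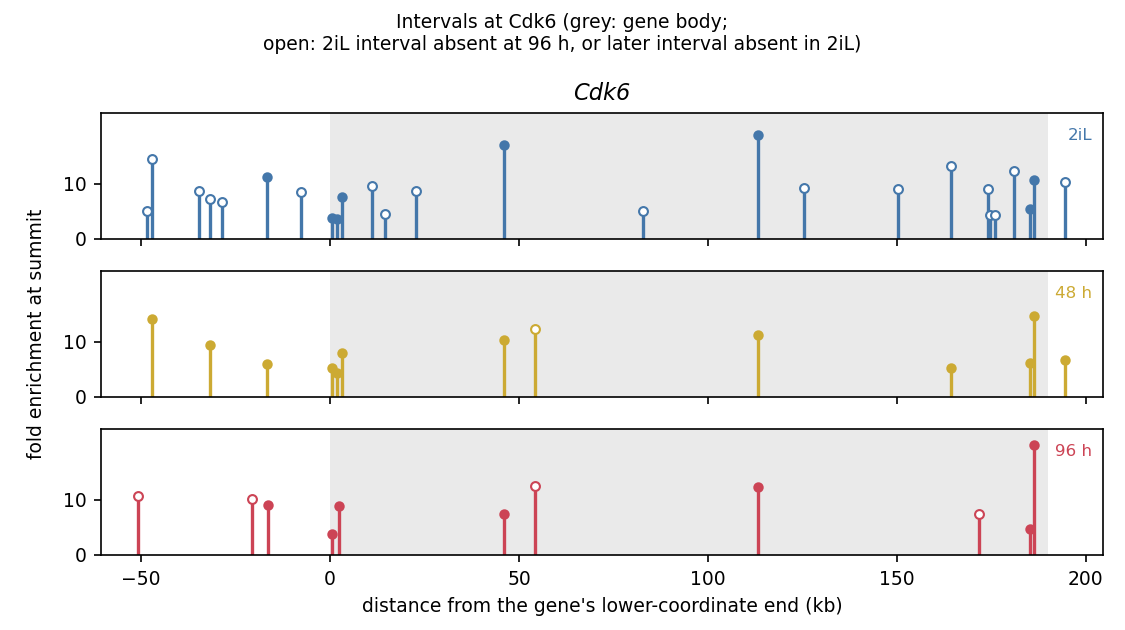
Intervals at Cdk6 in the 2iL, 48 h and 96 h lists (rows), placed by the distance of their midpoint from the lower-coordinate end of the gene in kb, with the fold enrichment at the summit as height; grey marks the gene body. Open circles mark 2iL intervals absent at 96 h and later intervals absent in 2iL: 18 of 26 in 2iL, 1 of 13 at 48 h and 4 of 11 at 96 h.

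The genes whose interval counts ran most like those of Cdk6, by the distance between log2 ratios of counts at 48 h and 96 h over 2iL among the 297 genes, were Abhd2 (20, 10 and 8 intervals), Slc44a1 (20, 10 and 8), Phlpp1 (21, 10 and 9), Prep (22, 11 and 10) and Niban1 (21, 11 and 8). The measure rests on 3 lists. Cdk4, the other kinase of the D-type cyclins, is 3.75 kb long with neighbours close on both sides, and had a single interval over its start, with folds of 7.44, 9.49 and 10.003 in 2iL, at 48 h and at 96 h (chr10:127063141-127063920 merged). Tspan31 overlaps its upper end, so intervals near that end can be counted to either gene.

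Among the D-type cyclins, Ccnd1 lost 9 of 14 intervals of 2iL by 96 h, Ccnd2 1 of 6 and Ccnd3 3 of 10, beside 42.9% at all genes. Ccnd1, a target of mitogen and WNT signalling (chr7:144929931-144939831), had 14, 8 and 7 intervals in 2iL, at 48 h and at 96 h. The 9 lost were 64.3% (35.1 to 87.2) of those in 2iL, and this binomial interval contains the 42.9% of all genes. Of the 14, 7 were already absent at 48 h, beside 31.1% at all genes. Over 10 kb from a gene end, 9 of 10 were lost by 96 h, beside 53.6% at all genes. All 9 lay above the upper end of the gene, 15.1 to 94.8 kb from it, in a stretch of 241.8 kb that has no other protein-coding gene before Tpcn2. The 4 intervals between 2.07 kb inside that end and 3.08 kb beyond it were kept, and that over the end itself had folds of 4.84, 5.24 and 5.77. Of the far regions, 1 at chr7:145030604-145031612, 91.1 kb away, was in all 3 lists, with folds of 9.46, 13.6 and 17.5. The strongest far regions that were lost lay 31.8 kb away (chr7:144970906-144972256, fold 13.4 in 2iL and 14.4 at 48 h, absent at 96 h) and 43.0 kb away (chr7:144982448-144983176, fold 12.1, in 2iL alone). Gained at 96 h were 2 intervals, 2.25 kb below the gene and 85.8 kb above it, with folds of 6.14 and 7.45.

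Ccnd2, a D-type cyclin gene with known roles in neural progenitors and ovarian granulosa cells (chr6:127125162-127152188), had 6, 11 and 8 intervals in the 2iL, 48 h and 96 h lists. It was the only 1 of the 8 genes with more at 96 h than in 2iL, which rests in part on intervals of low fold. Of its 8 intervals at 96 h, 3 were gained against 2iL, beside 32.5% at all genes. Their folds were 2.37 (chr6:127153311-127153729), 3.83 and 12.2, at percentiles 0.55, 6.02 and 69.6 of the 96 h list. The single 2iL interval of Ccnd2 over 10 kb away, 93.9 kb from the gene (chr6:127245764-127246375), was the 1 lost by 96 h. At 48 h, 5 of the 11 intervals of Ccnd2 were gained relative to 2iL, beside 29.4% at all genes, and 3 of these regions were absent again at 96 h. Around the upper end a new region appeared 1.00 kb inside the gene, with folds of 3.22 and 3.83 at 48 h and 96 h. At 48 h alone there were regions 1.61 kb inside that end and 2.67 kb beyond it. Their folds of 2.17 and 2.51 were at percentiles 0.20 and 0.81 of the 48 h list. The region over the upper end held 1, 2 and 1 intervals in the 2iL, 48 h and 96 h lists, which adds to the count at 48 h. A far region at chr6:127251276-127252786 had folds of 12.8 and 12.2 at 48 h and 96 h and was not in the 2iL list. Its midpoint was 99.8 kb from the gene at 48 h and 99.9 kb at 96 h, just inside the limit; the nearest interval outside the limit was 105.6 kb from Ccnd1 at 96 h, with a fold of 10.5, and 108.2 kb from Ccnd1 in 2iL, with a fold of 7.72. The strongest region of Ccnd2, 2.61 kb below its lower end, was in all 3 lists with folds of 21.5, 16.6 and 21.9.

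Ccnd3, the third D-type cyclin (chr17:47505051-47599689), had 10, 12 and 8 intervals in 2iL, at 48 h and at 96 h. It lost 3 of 10 by 96 h and gained 1 of 8, beside 42.9% and 32.5% at all genes. The gain was a region 22.6 kb inside the gene with folds of 3.91 at 48 h and 7.48 at 96 h. Regions 6.46 and 16.9 kb from the lower end were in all 3 lists. The nearer 1 (chr17:47511054-47511979) had folds of 11.05, 12.2 and 14.6, but its -log10 p went the other way, 1234, 792 and 636. The farther (chr17:47521362-47522464) had folds of 10.1, 9.76 and 12.6, with a -log10 p of 399, 631 and 889. A higher fold in a later list thus does not by itself show more access. RefSeq gives Ccnd3 a further start at position 47593467, inside the gene. An interval covered it in each list, with folds of 7.20, 7.43 and 7.62, but its nearest gene end is that of Bysl, which overlaps the upper end of Ccnd3, so it is not counted among the intervals of Ccnd3. In the same way 7, 5 and 5 intervals inside the Ccnd3 gene went to Bysl, and 1, 2 and 1 inside Ccnd1 to LTO1.

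**Figure D4:**
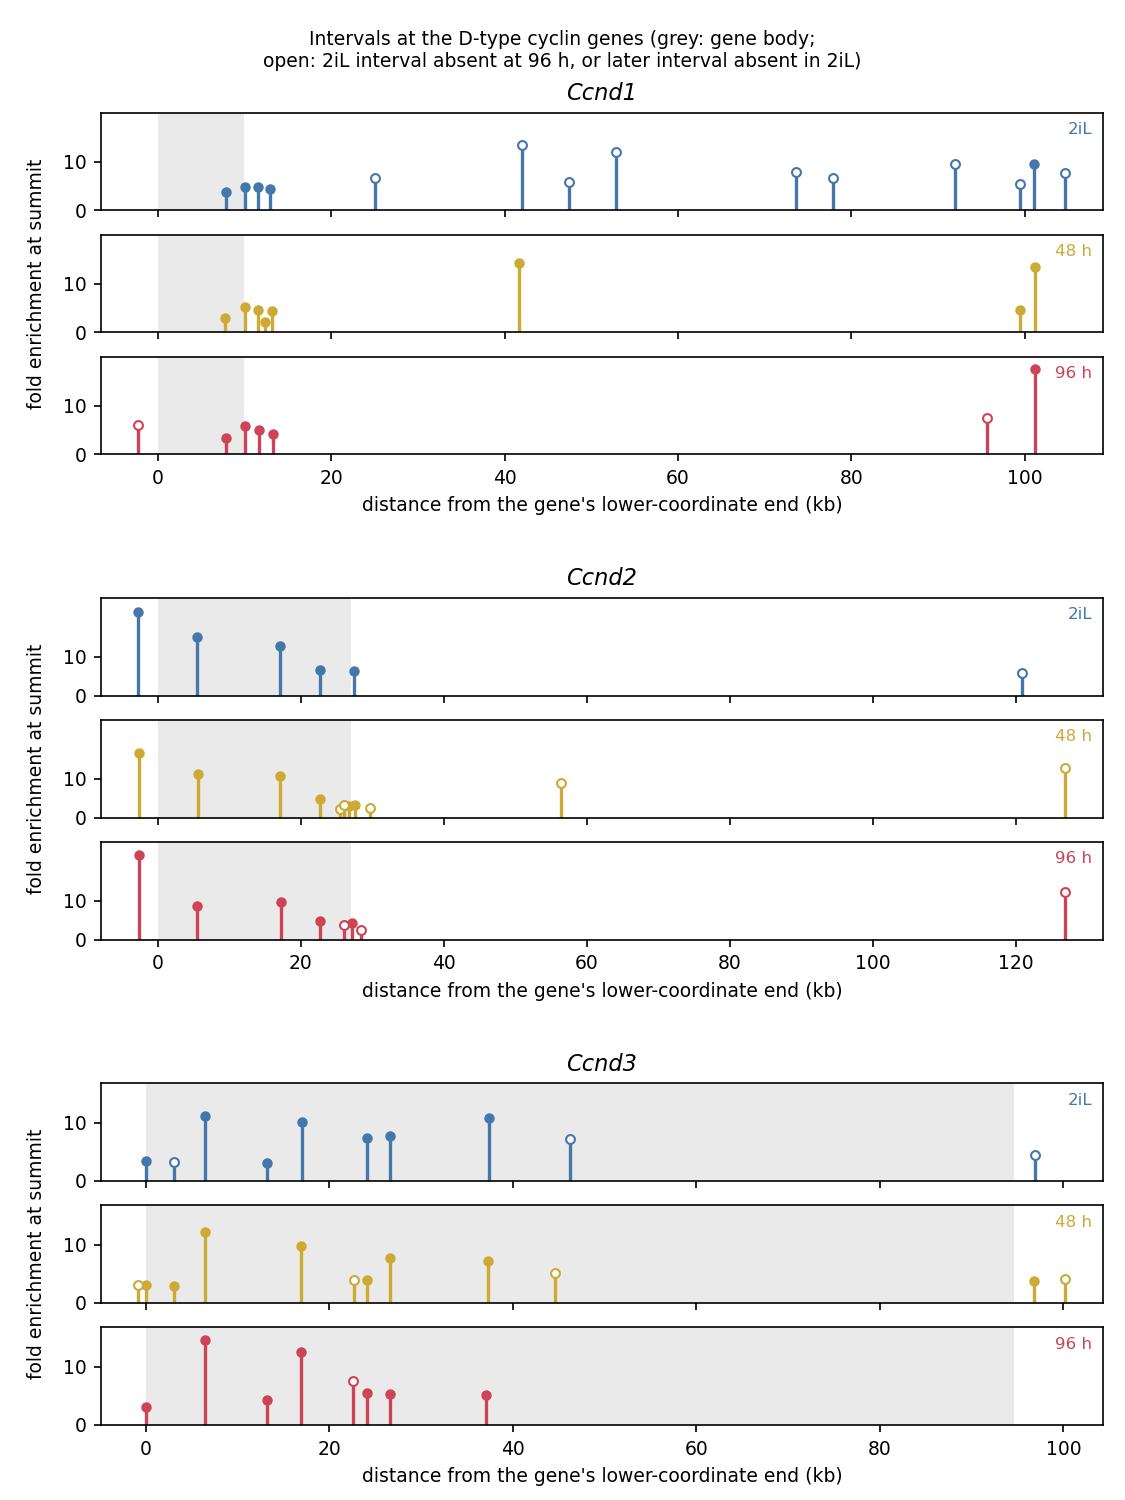
Intervals at Ccnd1, Ccnd2 and Ccnd3 in the 3 lists, placed by distance from the lower-coordinate end of each gene in kb, with fold enrichment at the summit as height and the gene body in grey. Open circles, which mark 2iL intervals absent at 96 h and later intervals absent in 2iL, stand for 9 of 14 Ccnd1 intervals in 2iL, 1 of 6 at Ccnd2 and 3 of 10 at Ccnd3.

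Ccne1, the cyclin E gene (chr7:38097984-38107490), had 11, 11 and 8 intervals in the 2iL, 48 h and 96 h lists. At 48 h it had lost 1 of 11 and gained 1 of 11, beside 31.1% and 29.4% at all genes. Of the 11 in 2iL, 4 were lost by 96 h, beside 42.9% at all genes, and 3 of those 4 were still present at 48 h. The interval over the start had folds of 9.03, 9.63 and 12.6. A wide region 12.5 kb below the gene (chr7:38084589-38086344) had the highest -log10 p of all member intervals in each list, 1543, 1202 and 1058, with folds of 16.1, 12.8 and 11.8. Regions 36.6 kb below the gene and 34.6 kb beyond its upper end were also in all 3 lists, with folds of 14.3, 13.1 and 17.2 and of 16.8, 13.6 and 15.6. Those lost after 48 h lay 11.4, 23.5 and 23.9 kb away.

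Of the inhibitor genes, Cdkn1a, a classical p53 target (chr17:29090979-29100722), had 12, 8 and 7 intervals in 2iL, at 48 h and at 96 h. By 96 h it lost 5 of 12, 41.7%, and gained 0 of 7, beside 42.9% and 32.5% at all genes. Cdkn1a has 2 annotated starts. The interval over the first, which contains the p53 element shown above, had folds of 4.52, 4.53 and 4.34, and that over the second, at position 29093769, had folds of 7.26, 10.6 and 10.1. Upstream regions 9.67 kb away (chr17:29080648-29081883, folds of 10.01, 9.74 and 9.87) and 11.8 kb away (chr17:29078900-29079446, folds of 4.31, 6.35 and 10.1) were in all 3 lists. The lost intervals of this gene had folds of 2.25 to 4.52 in 2iL, and those kept had folds of 3.43 to 10.01. An interval over its upper end was in the 2iL and 96 h lists but not in the 48 h list.

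Cdkn1b, the p27 gene (chr6:134920401-134925525), had 4, 5 and 4 intervals. Over its start the folds were 13.7, 10.6 and 11.2, in intervals of 1342, 1364 and 1355 bp. Regions 1.75 and 3.05 kb beyond the upper end were also in all 3 lists, and 1 region 5.80 kb below the gene, with a fold of 10.4, was in 2iL alone. A region 20.6 kb beyond the upper end (chr6:134945818-134946427) was new at 48 h, with folds of 6.75 and 10.3 at 48 h and 96 h.

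**Figure D5:**
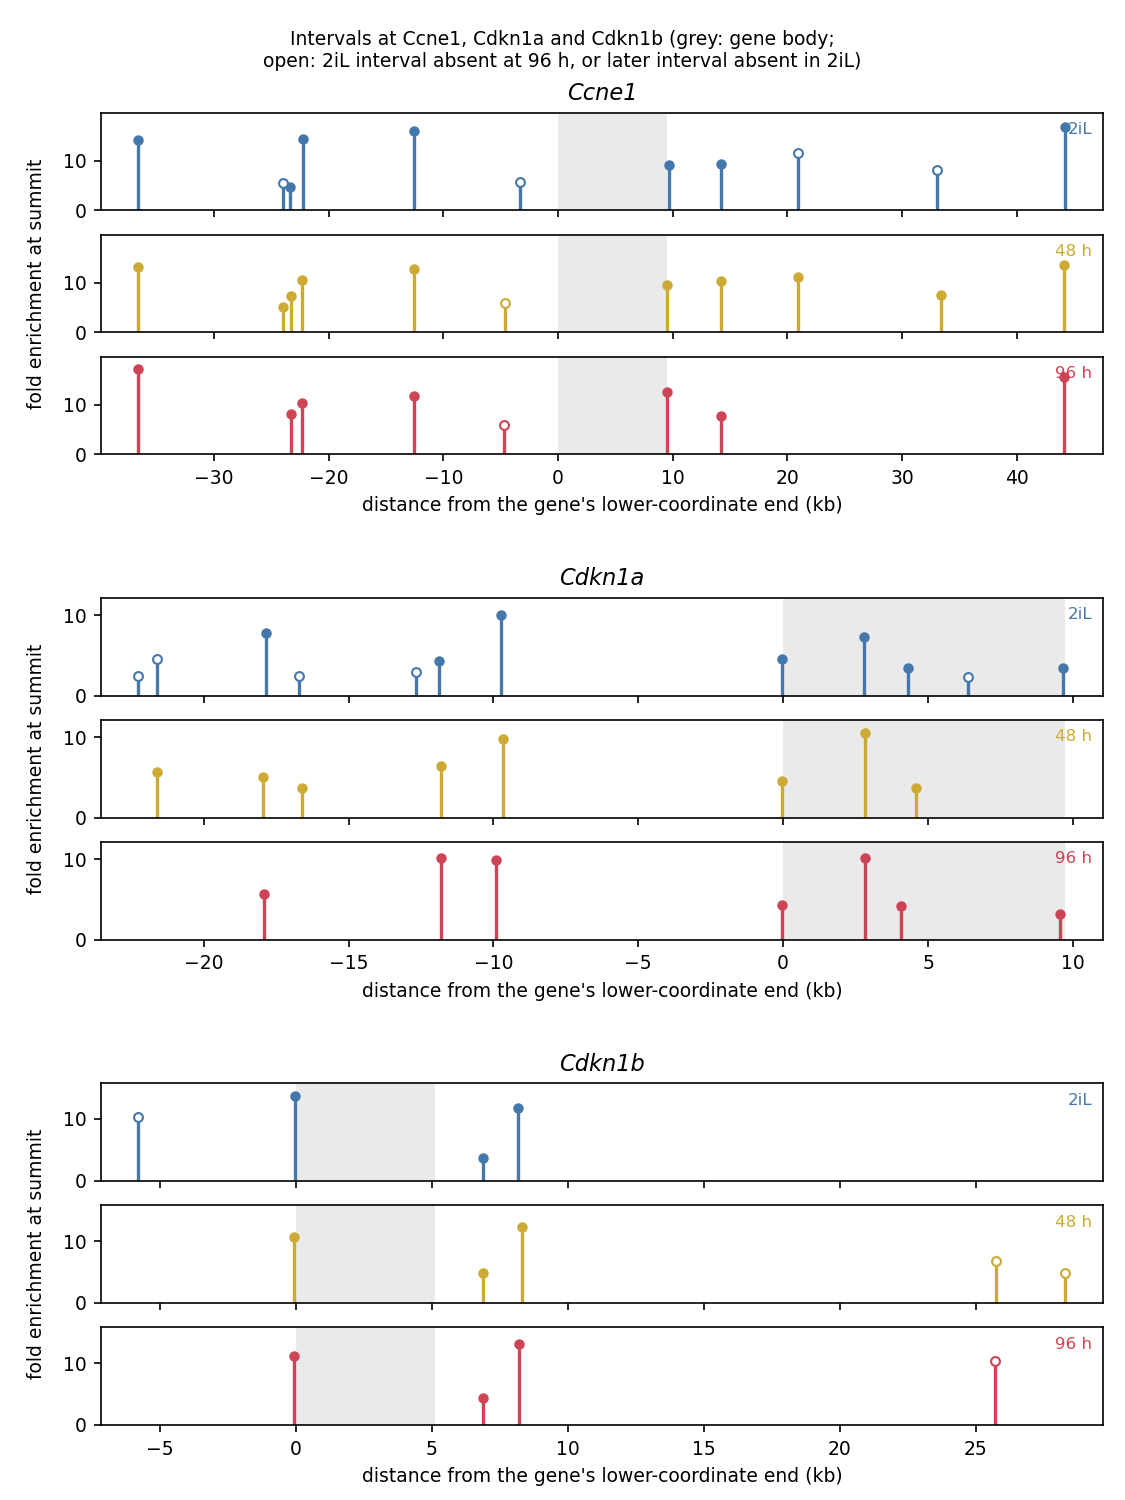
Intervals at Ccne1, Cdkn1a and Cdkn1b in the 3 lists, placed by distance from the lower-coordinate end of each gene in kb, with fold enrichment at the summit as height and the gene body in grey. Open circles, which mark 2iL intervals absent at 96 h and later intervals absent in 2iL, stand for 4 of 11 Ccne1, 5 of 12 Cdkn1a and 1 of 4 Cdkn1b intervals in 2iL.

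Around 38 other genes of the cell cycle and its control the balance was similar. Among them were cyclins, kinases, inhibitors, retinoblastoma and E2F genes. The list was not limited to G1 and S phase, since it also held Ccnb1, Ccnb2, Cdk1, Wee1, Trp53 and Mdm2. By 96 h, 84 of 186 intervals of 2iL were lost, 45.2% (37.9 to 52.6), while 35 of the 137 intervals of 96 h, 25.5% (18.5 to 33.7), were new, beside 42.9% and 32.5% at all genes. The 96 h list held fewer intervals than the 2iL list at 20 of the 38 genes, more at 4 and as many at 14. Over the 18297 genes with an interval it held fewer at 8286, more at 4589 and as many at 5422. The median log2 ratio of counts plus 1, 96 h over 2iL, was -0.27, against -0.35 for the 8 genes and 0 over all of these genes. That 0 does not mean a stable total, since intervals at all genes fell from 81060 in 2iL to 68477 at 96 h. The median count per gene in 2iL was 3 for the 38 genes, 10.5 for the 8 and 3 over all genes, so the ratios are not matched for count. Cdk1, the mitotic kinase, lost 10 of 15 and gained 4, and E2f3, an activating E2F gene, lost 8 of 10 and gained 0. Cdc25a, a phosphatase that activates Cdk2, lost 7 of 12 and gained 2, and Fbxw7, a ubiquitin ligase gene for cyclin E, lost 7 of 14 and gained 4. Gains of 3 intervals each were at the inhibitor gene Cdkn2a, at E2f6 and at Tfdp2, which lost 2 of 6, 3 of 7 and 6 of 9. Cks1b had no interval in any list.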

How the data were processed

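ATAC-seq of 6 samples in 3 groups was analysed as 3 peak lists, 1 per group, which the labels give to both samples of a group. BWA, SAMtools, Picard, bcl2fastq 2.20.0.422 and the build mm10 were used, per the submitters' processing notes, which give no roles. The sources used here do not name the peak caller, read shifting or duplicate removal, and each could change which weak peaks are listed. Fold enrichment, a linear ratio at the summit, -log10 p and a score per interval were deposited by the authors; the deposited -log10 q was not used. Lines with the same interval were reduced to the summit of highest -log10 p. Fold values describe intervals within their own list.

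Gene ends came from the RefSeq table of GRCm38.p6 with 21887 protein-coding genes, and starts and strand from the RefSeq promoter table. Python 3.11.15, pandas 2.3.3 and scipy 1.17.1 were used. The background was solved from fold and p as a Poisson pileup for intervals with a -log10 p under 200, which gave whole tag numbers, within 0.02, for 100% of them. Counting was checked on the 2iL list with intervals removed at random: removing 20.0%, 40.0% and 59.7% gave lost shares of 20.0%, 40.0% and 59.7%. A match was fixed by this design, so it checks the counting alone. How the overlap rule treats shifted, split or merged intervals was not tested by it. Motif matches were sought on both strands of the 300-base windows. The 8 genes and all gene lists were chosen with earlier results of these data known. The genes named are the 8 members, those of the 38 other cell cycle genes with the most lost or gained intervals, and the 5 nearest to Cdk6 in pattern. Genes named only to describe the make-up of that list are a further case.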

Additional observations from a re-analysis of the deposited data

How the results depend on the processing

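The shares were recalculated under 7 other settings and 2 more (intervals with the top score alone, and leaving out Ccnd1) chosen after seeing the data. These recount largely the same intervals, and a -log10 p of at least 10 left every member share unchanged. Staying inside the binomial interval of the reported share is thus a weak check. Of 54 recalculated shares, 53 stayed inside it. The exception was the share of 2iL intervals lost by 96 h, which was 34% (17 of 50) with a limit of 20 kb in place of 100 kb, beside 37.3% at all genes. Without Cdk6, and with the limit of 100 kb, that share was 39.7% (23 of 58, 27.0 to 53.4), beside 42.9% at all genes. With Cdk6 and without it, the binomial interval contained the share of all genes. Under the same 20 kb limit Cdk6 had 14, 7 and 6 intervals in 2iL, at 48 h and at 96 h. The share of all genes lay above the binomial interval for gains at 48 h with lists of equal length (12.9%, 5.74 to 23.85, beside 29.04%), and with the nearest gene body for gains against 2iL at 48 h (17.6%, 9.70 to 28.2, beside 30.001%) and at 96 h (18.6%, 9.69 to 30.9, beside 33.7%). Leaving out single samples was not run, since each list pools its samples. No paired analysis was possible because the lists hold no values per sample. With 1 to 26 intervals per gene in 2iL, the shares of single genes have wide binomial intervals.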
